A study of Mus musculus with 12 samples.

Results

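Mouse embryonic stem (mES) cells in which BRG1 was partly degraded with 1 nM dTAG13 are described here against the same cells without dTAG13, across every gene that averaged 1 RPKM or more in the 2 control and 2 treated libraries. RPKM divides the read pairs of a gene by its exon length and by the size of its library, and 11324 of the 24421 genes in the count table passed that minimum. All cells were B6 mES cells with a Brg1 dTag knock in, grown in 2i+LIF medium, and RNA was taken after 24 h of treatment. The control libraries carry no treatment in their labels and are the study's 0 nM (DMSO) condition. The series holds 12 libraries in 6 conditions, and those of 0.3, 3, 10 and 100 nM dTAG13 are used below only to fit the spread and to set the 1 nM genes beside other doses. The knock-in line was grown from colonies of single cells, so every library describes one engineered line, in a medium whose inhibitors block MEK and GSK3 signalling. The protein was the target, and the BRG1 level itself was not measured in these files.

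BRG1, encoded by Smarca4, is the ATPase of the mammalian SWI/SNF (mSWI/SNF) complexes, which use ATP to slide or evict nucleosomes and so keep enhancers and promoters open for transcription factors. In mES cells the esBAF form of the complex works beside OCT4, SOX2, NANOG and STAT3. The degron on BRG1 is a variant of FKBP12 that dTAG13 links to the cereblon ubiquitin ligase, which marks the fusion protein for the proteasome, and the dose sets how much protein remains. The comparison asks which transcripts leave their control level when BRG1 is lowered but still present.

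The counts summed to 6070152 and 6184807 in the control libraries and to 5939739 and 6375582 in the 1 nM libraries. Between 14.7% and 19.4% of these were Rn45s, a ribosomal transcript. Replicate counts varied beyond sampling error (chi-square of 4.43 per degree of freedom in control, 6.43 at 1 nM), so no library was a second copy of another. Rn45s, at 17.8% and 15.2% in control and 14.7% and 19.4% at 1 nM, enters this statistic, and its part was not separated. The study describes 2 independent experiments, and the labels do not say whether the cultures were separate, so p-values measure the spread between these libraries. The 12 core pluripotency genes, which mark mES cells, summed to 1680 and 1740 RPKM in the control libraries and 1810 and 1790 RPKM at 1 nM. Summed markers of other cell types ranged over the 4 libraries from 3.33 to 5.96 RPKM for 13 fibroblast genes, from 56.4 to 58.3 RPKM for 18 trophectoderm genes and from 76.0 to 85.9 RPKM for the genes of 2-cell-like cells. Of the last sum 69.8 to 79.2 RPKM was Eif1a alone, and the Zscan4 genes on that list were at most 1.79 RPKM each. Of the fibroblast genes 4 had at most 3 counts in each library, and of the trophectoderm genes also 4. In bulk RNA, fewer cells of a type and less RNA per cell cannot be told apart.

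Smarca4 is no check on the labels, because dTAG13 acts on the protein and not on the transcript. Smarca4 transcript stood at 63.6 and 62.9 RPKM in the control libraries and at 67.0 and 64.6 RPKM at 1 nM. The log2 fold change of Smarca4 was 0.06 (SE 0.055, edgeR adjusted p = 0.732). Smarca2, which encodes the alternative ATPase BRM, had only 44 and 28 counts in control and 21 and 21 counts at 1 nM, below the RPKM minimum. In a fit without that minimum its log2 fold change was -0.78 (SE 0.33, edgeR adjusted p = 0.374). None of the 24 tested mSWI/SNF subunit genes was a differentially expressed gene (DEG, defined next) in edgeR or in DESeq2, 2 had an unadjusted p under 0.05 (beside 13.4% of all tested genes), and 21 of them had a 95% interval wholly within 1.5-fold. All 6 tested genes of the degradation route itself had an interval within 1.5-fold, with 0 DEGs in either tool and 0 at an unadjusted p under 0.05.

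At 1 nM, 19 genes were higher than in control (0.168% of the genes tested) and 84 were lower (0.742%). A gene was called a DEG at a Benjamini-Hochberg adjusted p under 0.05 in edgeR's quasi-likelihood test together with a fold change over 1.5, and the 103 DEGs were 0.910% of the genes tested. Without the fold minimum 90 genes were higher (0.795%) and 177 lower (1.56%). Before adjustment, 1519 genes (13.4%) had a p under 0.05. Most changes were small. Only 3 of the higher and 22 of the lower DEGs passed 2-fold, and 7370 genes (65.1%) had a 95% interval of the change that lay wholly within 1.5-fold. In all 103 DEGs both 1 nM libraries lay beyond both control libraries, a separation that 45.0% of all tested genes also showed. With 2 libraries a group the counts depended on each of them. Without control replicate 1 there were 12 higher and 38 lower DEGs, and without control replicate 2 there were 8 and 42. Without 1 nM replicate 1 there were 12 and 46, and without 1 nM replicate 2 there were 8 and 28. The fold minimum fell close to some genes. Slc38a4 (1.503-fold) and Dusp1 (1.507-fold) lay just inside it, and Wnk3 (1.496-fold) just outside, with Fn1 short of it by less than the rounding of its fold.

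**Figure D1:**
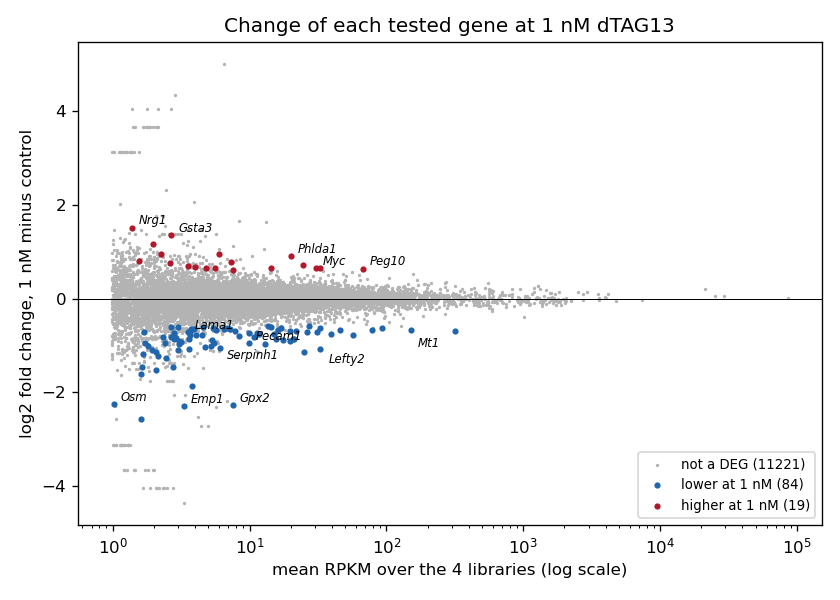
Log2 fold change (1 nM minus control) of each of the 11324 tested genes against its mean RPKM over the 4 libraries on a log scale, with the 84 lower DEGs in blue, the 19 higher DEGs in red and all other genes in grey. The DEGs lie mostly below 0 and within 2-fold, and Emp1, Gpx2 and Osm are among those that fall furthest. Rows of grey points at the left are genes with few counts.

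The deepest falls described here were in Emp1, Gpx2 and Osm, genes of low to moderate level. Emp1, a tetraspan epithelial membrane protein, stood at 4.74 and 6.19 RPKM in control and at 1.21 and 1.03 RPKM at 1 nM (log2 fold change -2.29, SE 0.265, edgeR adjusted p = 7.21e-06). Gpx2, a glutathione peroxidase of epithelia, stood at 11.5 and 13.4 RPKM in control and at 2.19 and 2.94 RPKM at 1 nM (log2 fold change -2.27, SE 0.326, edgeR adjusted p = 0.000167). Emp1 and Gpx2 stayed DEGs whichever of the 4 libraries was left out. Osm encodes oncostatin M, a cytokine of the LIF family, and had only 18 and 21 counts in control and 5 and 3 counts at 1 nM. Its log2 fold change was -2.25 (SE 0.555, edgeR adjusted p = 0.0268), and the call was lost without either 1 nM library (adjusted p up to 0.284).

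Below them came Apobec2, of the APOBEC family of cytidine deaminases, which stood at 5.86 and 6.09 RPKM in control and at 2.60 and 0.677 RPKM at 1 nM. The 1 nM libraries differed widely from each other, and the log2 fold change of -1.86 (SE 0.399, edgeR adjusted p = 0.00999) ran from -3.11 to -1.19 when single libraries were left out, with the call lost without control replicate 1, control replicate 2 or 1 nM replicate 2. Padi4, a peptidylarginine deiminase that citrullinates histones, stood at 2.51 and 2.32 RPKM in control and at 0.632 and 0.938 RPKM at 1 nM (log2 fold change -1.61). Dtx1, a ubiquitin ligase of the NOTCH pathway, fell by 1.52 on the log2 scale. Tmem173, the STING adaptor of cytosolic DNA sensing, and Acsl5, a long-chain acyl-CoA synthetase, fell by 1.46 and 1.45 on the log2 scale. The call was lost whichever of the 4 libraries was left out for Padi4 and Acsl5, without control replicate 2 or 1 nM replicate 1 for Dtx1, and without each library but control replicate 2 for Tmem173. The adjusted p of these 4 genes then reached 0.171, 0.228, 0.176 and 0.191.

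The sequence before the start site is shown for the strongest falls that hold the letters of an AP-1 site or a TATA box, a choice made after the values were seen. The windows are the 250 bases before the RefSeq start (GRCm38.p6, the same assembly as mm10), given 5′ to 3′ on the gene's strand. Capitals mark TGACTCA, the AP-1 consensus, or its reverse complement, and TATAAA, both searched on both strands.
Emp1, chr6:135362681-135362930, plus strand: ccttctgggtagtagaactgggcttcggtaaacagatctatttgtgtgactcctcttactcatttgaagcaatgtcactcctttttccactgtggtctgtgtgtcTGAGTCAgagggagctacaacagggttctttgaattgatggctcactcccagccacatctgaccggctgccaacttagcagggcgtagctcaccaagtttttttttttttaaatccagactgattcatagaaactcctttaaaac
Apobec2, chr17:48432729-48432978, minus strand: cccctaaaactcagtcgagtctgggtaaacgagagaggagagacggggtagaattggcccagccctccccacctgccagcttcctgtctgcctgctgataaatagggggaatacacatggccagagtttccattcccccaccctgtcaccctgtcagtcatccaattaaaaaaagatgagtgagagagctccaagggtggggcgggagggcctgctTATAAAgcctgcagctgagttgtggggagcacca
Padi4, chr4:140774204-140774453, minus strand: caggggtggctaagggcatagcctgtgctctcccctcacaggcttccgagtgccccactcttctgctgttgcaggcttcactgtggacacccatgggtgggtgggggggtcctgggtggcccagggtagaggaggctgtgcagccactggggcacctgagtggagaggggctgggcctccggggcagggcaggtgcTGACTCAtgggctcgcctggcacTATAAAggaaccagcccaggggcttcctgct
The AP-1 letters begin 145 bases before the start in Emp1 and 54 bases before it in Padi4. TATAAA begins 34 bases before the start in Apobec2 and 31 bases before it in Padi4. Over all 8206 tested genes with a window, 2.71% held TGACTCA and 5.78% TATAAA on either strand. A window was found for 59 of the 84 lower and 11 of the 19 higher DEGs, which is under 80%. Genes without one had no RefSeq start in the source used, or none on their strand and close to their counted 5′ end. A comparison of motifs or base composition between the DEGs and other genes is therefore void and is not given.

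Serpinh1 and Lefty2 fell less far but with very little spread. Serpinh1, which encodes the collagen chaperone HSP47, stood at 34.3 and 34.1 RPKM in control and at 15.9 and 15.2 RPKM at 1 nM (log2 fold change -1.14, SE 0.104, edgeR adjusted p = 1.68e-07). Lefty2, a secreted antagonist of Nodal, stood at 46.4 and 42.6 RPKM in control and at 21.0 and 21.1 RPKM at 1 nM (log2 fold change -1.08, SE 0.0989, edgeR adjusted p = 1.68e-07). Both 1 nM groups were thus below 50% of the control mean, and both genes stayed DEGs whichever of the 4 libraries was left out. Among the 25 largest falls, Khdc3, a KH-domain protein of oocytes and stem cells, went from 17.34 and 17.01 RPKM to 8.705 and 9.004 RPKM and also kept its call in each of these fits (log2 fold change -0.95, edgeR adjusted p = 0.000285). Ildr1, a protein of tricellular junctions, went from 8.61 and 7.68 RPKM to 4.28 and 3.63 RPKM (log2 fold change -1.04, edgeR adjusted p = 0.0021), and lost its call without control replicate 1 or 1 nM replicate 2 (adjusted p up to 0.0749).

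Further genes among the 25 largest falls were 2610301B20Rik, Zfp934, Camkk1, Sh3tc2, Elovl7, Rundc3a, Slc30a2, Ly6e, Ccdc8, Islr2 and Pnma2. Camkk1 is a kinase of the calcium-calmodulin cascade, Elovl7 an elongase of long fatty acids and Slc30a2 a zinc exporter. Their log2 fold changes ran from -1.26 for 2610301B20Rik to -0.98 for Pnma2. Slc30a2 lost its call without control replicate 1 or 1 nM replicate 1 (adjusted p up to 0.246) and Pnma2 without control replicate 1 or 1 nM replicate 2 (up to 0.191), while the others lost it whichever of the 4 libraries was left out.

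**Figure D2:**
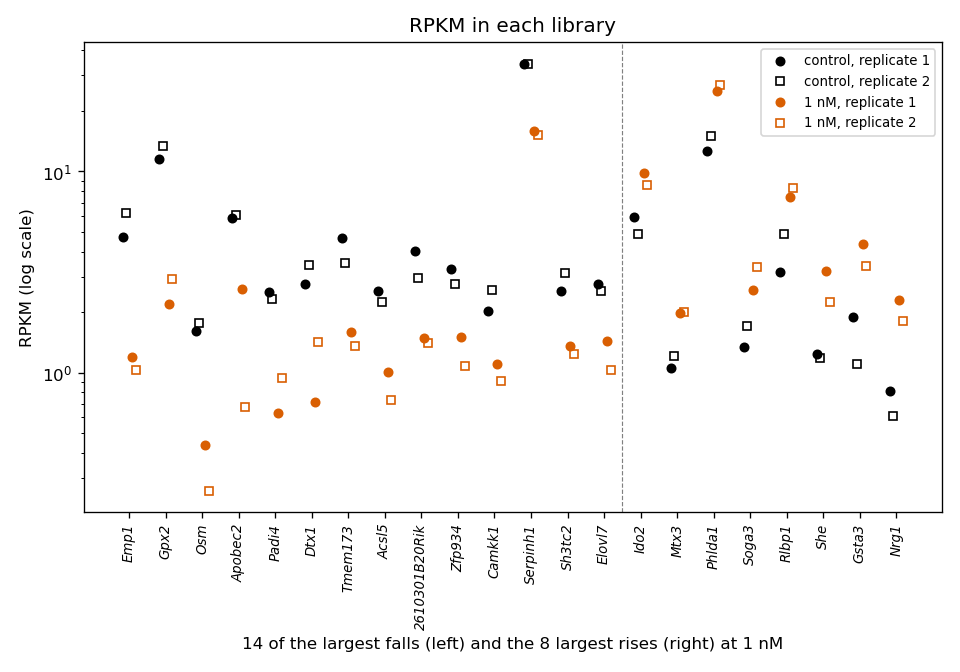
RPKM on a log scale in each of the 4 libraries for 14 of the genes with the largest falls and the 8 with the largest rises among the named DEGs, control in black and 1 nM in orange, with replicate 1 as circles and replicate 2 as open squares. Control and 1 nM libraries do not overlap for any gene shown, which was a condition for picking the largest falls and rises. Serpinh1 has nearly coincident replicates while Apobec2 at 1 nM has the widest gap.

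The rises were fewer and smaller. Phlda1, a pleckstrin-homology-like protein induced by growth factor signalling, stood at 12.7 and 14.9 RPKM in control and at 25.2 and 27.0 RPKM at 1 nM (log2 fold change 0.91, SE 0.142, edgeR adjusted p = 0.000418). Myc, the growth-promoting transcription factor, stood at 24.1 and 23.6 RPKM in control and at 37.8 and 37.6 RPKM at 1 nM (log2 fold change 0.66, SE 0.082, edgeR adjusted p = 1.97e-05). Peg10, an imprinted gene derived from a retrotransposon, stood at 52.3 and 53.5 RPKM in control and at 81.9 and 83.3 RPKM at 1 nM (log2 fold change 0.64, SE 0.0548, edgeR adjusted p = 1.57e-07). Replicates of these 3 genes were close to each other, and the call of each held with each library left out in turn.

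The largest rises were in genes near the RPKM minimum. Nrg1, the ERBB ligand neuregulin 1, had 10 and 8 counts in control and 29 and 23 at 1 nM (log2 fold change 1.52, SE 0.411, edgeR adjusted p = 0.0474). It passed that minimum through 1 nM alone, with means of 0.711 RPKM in control and 2.05 RPKM at 1 nM. Gsta3, a glutathione S-transferase, had 18 and 11 counts in control and 42 and 33 at 1 nM (log2 fold change 1.37, SE 0.341, edgeR adjusted p = 0.0285). Nrg1 and Gsta3 lost the call whichever of the 4 libraries was left out (adjusted p up to 0.324 and 0.337). She, an SH2-domain adaptor, went from 1.24 and 1.18 RPKM to 3.22 and 2.24 RPKM (log2 fold change 1.17, edgeR adjusted p = 0.00245) and lost the call without control replicate 2 or 1 nM replicate 1 (adjusted p up to 0.112). Slc7a2, a transporter of cationic amino acids, went from 1.80 and 2.07 RPKM to 3.33 and 3.23 RPKM (log2 fold change 0.76, edgeR adjusted p = 0.00302), with the call lost only without control replicate 1 (0.0841). Ido2, a tryptophan-degrading dioxygenase, rose by 0.78 on the log2 scale, and Commd3 by 0.73. Ido2 lost its call without control replicate 2 or 1 nM replicate 1 (adjusted p up to 0.12) and Commd3 without control replicate 1 (0.0873). Rlbp1, Soga3, Mtx3, Sept3, Ube2j1, Pramel7 and Ak7 rose by between 0.66 and 0.96 on the log2 scale, and each lost its call in at least 3 of the 4 fits with a library left out. Gsta3 and Pramel7 belong to families of similar genes, and pairs that align to several copies were left out by the authors, so their levels are uncertain.

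The gene lists were chosen with earlier results of these data known. Each count of their DEGs is to be read beside the share over all tested genes, 0.910%, with 0.742% lower and 0.168% higher. Of 921 tested genes in 53 gene lists, 30 were DEGs, 24 lower and 6 higher, and the other 73 DEGs were in no list. Without control replicate 1 there were 18 such list genes, and without 1 nM replicate 2 there were 14. The core pluripotency genes stayed within 1.5-fold. None of the 12 was a DEG in edgeR or DESeq2, 4 had an unadjusted p under 0.05 (beside 13.4% of all tested genes), and all 12 had a 95% interval wholly within 1.5-fold. Pou5f1 (OCT4) stood at 552 and 581 RPKM in control and at 628 and 609 RPKM at 1 nM (log2 fold change 0.13, edgeR adjusted p = 0.336). Sox2 changed by -0.04 on the log2 scale. Nanog and Dppa2 were higher at an adjusted p under 0.05 but under 1.5-fold, with log2 fold changes of 0.21 (edgeR adjusted p = 0.0218) and 0.38 (0.0233). Of 23 naive pluripotency genes, 1 was lower, the adhesion molecule Pecam1, which went from 13.9 and 12.1 RPKM to 6.61 and 6.88 RPKM (log2 fold change -0.95, SE 0.148, edgeR adjusted p = 0.00043) and kept its call with each library left out in turn. The naive factor Tfcp2l1 was 0.21 lower on the log2 scale (edgeR adjusted p = 0.0165), whereas Tet2 and Mybl2 were each 0.30 higher (0.0024 and 0.00217), all under 1.5-fold. Esrrb changed by -0.0042 on the log2 scale (edgeR adjusted p = 0.987).

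Few genes of each signalling list passed the test. Of 18 tested genes of the Nodal pathway only Lefty2 passed the test. Its neighbour in function, Lefty1, had a similar log2 fold change of -0.95 from a lower level, 7.84 and 6.23 RPKM in control and 4.16 and 3.09 RPKM at 1 nM, but did not pass (edgeR adjusted p = 0.0798). The ligand Nodal changed by 0.03, the coreceptor Tdgf1 by 0.05 and the cofactor Foxh1 by -0.27 on the log2 scale, none past the test. Of 23 WNT genes 2 were lower. Sfrp1, a secreted WNT antagonist, went from 72.9 and 70.3 RPKM to 43.5 and 40.2 RPKM (log2 fold change -0.78, SE 0.0695, edgeR adjusted p = 1.68e-07), and its call held with each library left out in turn. The WNT receptor Fzd7 went from 8.98 and 8.48 RPKM to 5.83 and 5.35 RPKM (log2 fold change -0.64, edgeR adjusted p = 0.0028), with the call lost without control replicate 1 or 1 nM replicate 2 (adjusted p up to 0.0876). The coreceptor Lrp5 was 0.54 lower (edgeR adjusted p = 0.00245), under 1.5-fold.

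Of 21 tested ERK feedback and target genes, 2 were higher and 1 lower. The 2 higher ones are Phlda1 and Myc, described above. The lower one was Dusp1, a phosphatase of MAP kinases, at 16.2 and 16.8 RPKM in control and 11.6 and 10.3 RPKM at 1 nM (log2 fold change -0.59, edgeR adjusted p = 0.0303), and it lost the call whichever of the 4 libraries was left out (adjusted p up to 0.308). Spry4, a feedback inhibitor of receptor signalling, was 0.36 higher on the log2 scale (edgeR adjusted p = 0.00259), under 1.5-fold. The ERK-induced factors Etv4, Etv5 and Dusp6 had log2 fold changes of 0.19, 0.06 and 0.14, none past the test. Among 29 targets of MYC in ribosome making and metabolism, 0 were DEGs in edgeR or DESeq2, 9 had an unadjusted p under 0.05 (beside 13.4% of all), and 3 were higher at an adjusted p under 0.05 in edgeR. All 29 had an interval within 1.5-fold. Their median log2 fold change was 0.08, beside 0.0033 over all tested genes.

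Several genes of the extracellular matrix were lower by small amounts. Of 19 tested matrix genes 2 were DEGs, both lower, and 10 were lower at an edgeR adjusted p under 0.05 without the fold minimum, where the share over all genes was 1.56%. The median log2 fold change of the 19 was -0.29. Vcan, the proteoglycan versican, stood at 2.95 and 2.97 RPKM in control and at 1.68 and 1.66 RPKM at 1 nM (log2 fold change -0.82, SE 0.139, edgeR adjusted p = 0.000927). Lama1, the laminin alpha 1 chain of basement membranes, went from 4.27 and 4.55 RPKM to 2.37 and 3.03 RPKM (log2 fold change -0.71, edgeR adjusted p = 0.00302), and lost its call without control replicate 2 or 1 nM replicate 1 (adjusted p up to 0.123). Fn1, fibronectin, went from 152 ± 5.99 RPKM to 102 ± 1.39 RPKM (SD, n = 2; log2 fold change -0.58, edgeR adjusted p = 5.29e-07), just short of the fold minimum. The basement membrane genes Col18a1, Nid1 and Nid2 had log2 fold changes of -0.49, -0.36 and -0.46 (edgeR adjusted p = 9.45e-05, 0.0153 and 0.000369), and the collagen-binding protein gene Sparc one of -0.41 (0.00217). The laminin gene Lama5 and the heparan sulfate proteoglycan genes Hspg2 and Agrn were 0.29, 0.26 and 0.28 lower. Col4a1, a collagen of basement membranes, did not pass the test and had 369 and 357 counts in control and 415 and 404 at 1 nM (log2 fold change 0.18, edgeR adjusted p = 0.494).

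Among 15 tested genes of collagen maturation Serpinh1 was the only one to pass the test. The prolyl hydroxylase subunit P4hb changed by -0.05, the lysyl hydroxylases Plod1, Plod2 and Plod3 by 0.19, 0.0036 and 0.37, and the chaperones Ppib and Fkbp10 by -0.08 and -0.35 on the log2 scale. Serpinh1, Lama1 and Sparc are also on the list of primitive endoderm markers, whose 16 genes summed to 191 and 170 RPKM in control and to 133 and 130 RPKM at 1 nM. Most of that sum was Sparc and Serpinh1. Not every listed gene was lower, and Col4a2 had 82 and 48 counts in control and 94 and 115 at 1 nM (log2 fold change 0.68, edgeR adjusted p = 0.0729). Among the regulators of that lineage, Gata6 had 2 and 2 counts in control and 0 and 0 at 1 nM, Sox17 between 1 and 6 counts and Foxa2 at most 1. Gata4 had between 9 and 18 counts and Sox7 between 12 and 18, with the groups overlapping for both. The part of primitive endoderm cells in these falls was not tested.

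Lower DEGs were also found among cell-surface genes of epithelia and of cell guidance. Of 24 tested epithelial junction genes 1 was a DEG, Ildr1. Without the fold minimum 4 were lower at an edgeR adjusted p under 0.05, beside 1.56% of all tested genes. The other three were Epcam, Cldn4 and Cdh1 with log2 fold changes of -0.58, -0.57 and -0.20 (edgeR adjusted p = 0.00395, 0.0137 and 0.0432). Of 23 ephrin and guidance genes 2 were lower. Unc5b, a netrin receptor, went from 10.0 and 9.37 RPKM to 6.77 and 5.29 RPKM (log2 fold change -0.69, edgeR adjusted p = 0.00283), and lost its call without control replicate 1 or 1 nM replicate 2 (adjusted p up to 0.137). Ephb3, an ephrin receptor, went from 4.881 and 4.704 RPKM to 3.14 and 2.95 RPKM (log2 fold change -0.65, edgeR adjusted p = 0.0312), and lost it whichever of the 4 was left out (up to 0.265). Of 21 integrin and adhesion genes, 20 had an interval within 1.5-fold, 0 were DEGs in edgeR or DESeq2 and 4 had an unadjusted p under 0.05 (beside 13.4% of all).

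Redox and metal-handling genes held several DEGs. Of 32 glutathione and antioxidant genes 2 were lower, Gpx2 and Nqo1, and 1 was higher, Gsta3. Over all tested genes 0.742% were lower and 0.168% higher. Nqo1, a quinone reductase, went from 35.8 and 41.6 RPKM to 24.1 and 23.4 RPKM (log2 fold change -0.71, SE 0.111, edgeR adjusted p = 0.00043) and kept its call with each library left out in turn. Catalase (Cat) and the peroxiredoxin Prdx6 were 0.38 and 0.42 lower on the log2 scale (edgeR adjusted p = 0.0151 and 0.0168), under 1.5-fold. The most abundant members Prdx1, Sod1 and Gpx1 changed by 0.02, 0.07 and 0.09.

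Of 10 tested genes of metal binding and transport 2 were lower, the neighbouring metallothioneins Mt1 and Mt2, whose small proteins bind zinc and copper. Mt1 stood at 180 and 190 RPKM in control and at 114 and 119 RPKM at 1 nM (log2 fold change -0.67, SE 0.0919, edgeR adjusted p = 0.000103). Mt2 stood at 115 and 109 RPKM in control and at 74.7 and 71.5 RPKM at 1 nM (log2 fold change -0.61, SE 0.122, edgeR adjusted p = 0.00543). Mt1 kept its call with each library left out in turn, whereas Mt2 lost it without control replicate 1 or either 1 nM library (adjusted p up to 0.105). The ferritin light chain gene Ftl1 was 0.39 lower (edgeR adjusted p = 0.000498), under 1.5-fold. The 2 metallothionein genes lie 5522 bases apart and moved together, so their upstream sequence is given, with capitals for metal response element cores (TGCACNC and TGCGCNC) and for TGACTCA, on both strands.
Mt1, chr8:94178839-94179088, plus strand: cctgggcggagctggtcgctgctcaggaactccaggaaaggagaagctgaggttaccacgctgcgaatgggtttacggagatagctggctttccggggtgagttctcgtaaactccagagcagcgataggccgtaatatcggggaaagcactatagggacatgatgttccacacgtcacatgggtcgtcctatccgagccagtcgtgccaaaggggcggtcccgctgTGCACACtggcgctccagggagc
Mt2, chr8:94172368-94172617, plus strand: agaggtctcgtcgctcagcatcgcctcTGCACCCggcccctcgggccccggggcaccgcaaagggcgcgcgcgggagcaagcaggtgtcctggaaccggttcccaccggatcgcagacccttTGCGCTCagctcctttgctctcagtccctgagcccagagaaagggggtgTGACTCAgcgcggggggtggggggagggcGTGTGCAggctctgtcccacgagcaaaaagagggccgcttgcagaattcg
The Mt1 window held 1 core, 23 bases before the RefSeq start, and the Mt2 window 3 cores, at 223, 128 and 50 bases before it, with the AP-1 letters at 79. Bases after the RefSeq start were not searched, so these are not the full numbers of cores at either gene. Over all windows 10.4% held TGCACNC and 23.4% TGCGCNC.

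Imprinted genes went both ways. Of 21 tested, 1 was higher, Peg10, and 2 were lower, the noncoding Rian (log2 fold change -0.62, edgeR adjusted p = 0.022) and the neuronatin gene Nnat (-0.81, 0.0339). Mest was 0.44 lower (edgeR adjusted p = 0.000623), under 1.5-fold. Rian lost its call without control replicate 1, control replicate 2 or 1 nM replicate 2 (adjusted p up to 0.37), and Nnat whichever of the 4 libraries was left out (up to 0.282). The 13 tested germline genes that DNA methylation normally silences had a median of 0.34 on the log2 scale. Of these 1 was a DEG, Piwil2 of the piRNA pathway, at 3.84 and 3.67 RPKM in control and 5.84 and 5.95 RPKM at 1 nM (log2 fold change 0.65, edgeR adjusted p = 0.00984), with the call lost whichever of the 4 libraries was left out (up to 0.122). A further 3, Ddx4, Tex15 and Stag3, were higher under 1.5-fold with log2 fold changes of 0.52, 0.51 and 0.48 (edgeR adjusted p = 0.0211, 0.000676 and 0.00687). Over all tested genes 0.795% were higher without the fold minimum.

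Immune genes included Ifitm1, an interferon-induced membrane protein, which went from 27.7 and 25.7 RPKM to 14.9 and 14.3 RPKM (log2 fold change -0.87, edgeR adjusted p = 0.0407), and Irf9, a subunit of the interferon-activated ISGF3 factor, which rose from 6.20 and 5.75 RPKM to 8.75 and 9.58 RPKM (log2 fold change 0.62, edgeR adjusted p = 0.0165). Both lost the call whichever of the 4 libraries was left out (adjusted p up to 0.272 and 0.21). They were the only DEGs among 13 tested interferon and MHC genes, of which Ifitm3 was 0.49 lower (edgeR adjusted p = 0.00395) and Tapbp 0.55 lower (0.0133), under 1.5-fold. Single lower DEGs came from 5 further lists. These were Igfbp2, an insulin-like growth factor binding protein (log2 fold change -0.67, edgeR adjusted p = 7.32e-05), Optn, an autophagy receptor (-0.80, 0.0137), Nupr1, a stress-induced chromatin protein (-0.86, 0.0177), Slc16a3, a lactate exporter (-0.67, 0.0474) and Elovl7 (-1.10, 0.0176). Of the 5, only Igfbp2 held with each library left out in turn. The adjusted p of the other four rose to 0.191, 0.264, 0.336 and 0.279 when single libraries were left out. Among 22 cholesterol synthesis genes 0 were DEGs in edgeR or DESeq2 and 12 had an unadjusted p under 0.05, beside 13.4% of all tested genes. Their median log2 fold change was -0.22, and 3 were lower at an adjusted p under 0.05, among them Msmo1 and Insig1 (log2 fold changes -0.50 and -0.36).

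Several lists of housekeeping and chromatin genes held no DEG. None of 76 cytosolic ribosomal protein genes, 42 oxidative phosphorylation genes, 32 cyclins and cell cycle regulators, 24 p53 targets, 29 Polycomb genes, 22 other remodeller genes or 21 genes of the Hippo and YAP pathway was a DEG in edgeR or DESeq2, with 2, 1, 3, 4, 8, 5 and 5 of them, in that order, at an unadjusted p under 0.05. The share over all tested genes was 13.4%. The ribosomal, oxidative phosphorylation and cell cycle lists lay below it. The p53, Polycomb, other remodeller and Hippo and YAP lists lay above it. The interval lay within 1.5-fold for 72 of the ribosomal, 41 of the oxidative phosphorylation and 27 of the cell cycle genes. The median log2 fold change was -0.02, 0.0014 and 0.02 in these 3 lists. Markers of neuroectoderm and mesoderm had 0 DEGs in either tool, with 2 of 4 and 2 of 2 tested members at an unadjusted p under 0.05, beside 13.4% of all tested genes. Their summed levels in control against 1 nM were 45.6 and 49.3 against 55.1 and 59.0 RPKM and 19.6 and 16.1 against 21.8 and 26.5 RPKM. Eomes and Olig2 had log2 fold changes of 0.43 and 0.55 that did not pass (edgeR adjusted p = 0.0524 and 0.0517).

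**Figure D3:**
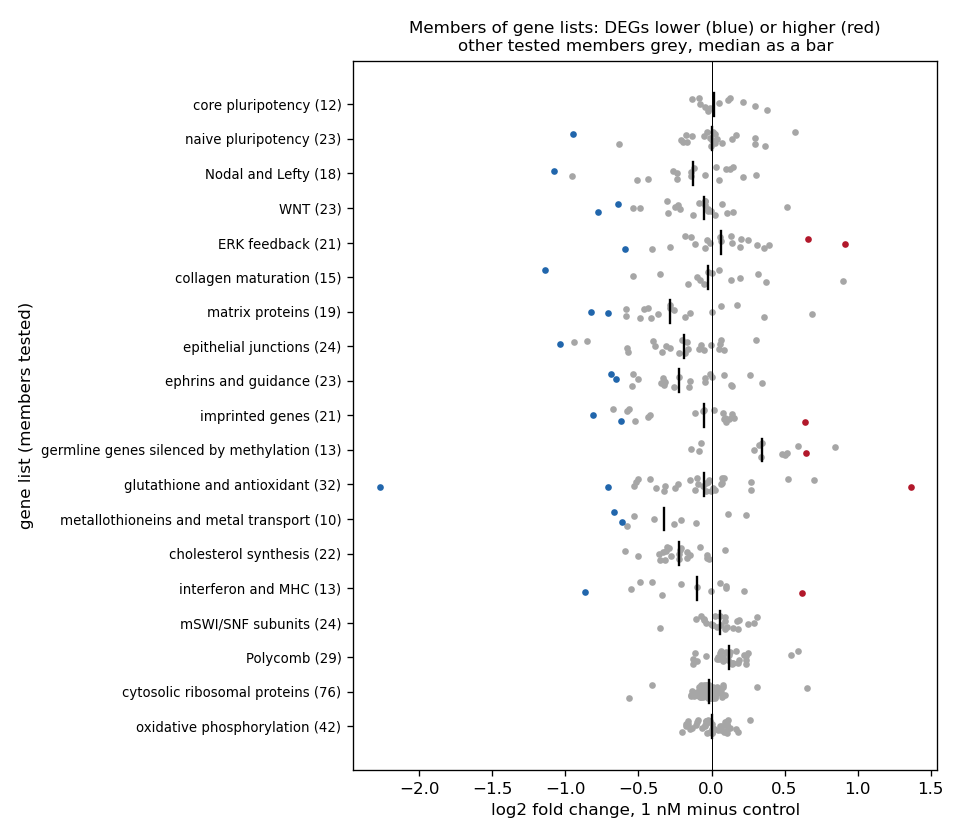
Log2 fold change (1 nM minus control) of every tested member of 19 gene lists, with the number of tested members in brackets, lower DEGs in blue, higher DEGs in red, other members in grey and the list median as a black bar. The medians of the ribosomal and oxidative phosphorylation genes sit near 0, that of the matrix genes at -0.29 and that of the methylation-silenced germline genes at 0.34.

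Several further DEGs are named after their values were seen, for their role or their level. Ion and nutrient transporters were among them. Atp1b1, a beta subunit of the sodium-potassium pump, went from 40.8 and 38.3 RPKM to 27.4 and 24.0 RPKM (log2 fold change -0.62, edgeR adjusted p = 0.00311), though its exons overlap those of Nme7 on the other strand and counting ignored the strand. Atp2a3, a calcium pump of the endoplasmic reticulum, fell by 0.77 and the amino acid transporter gene Slc38a4 by 0.59 on the log2 scale. Slc25a20, the mitochondrial carnitine carrier, rose by 0.65. Trh, the precursor of thyrotropin-releasing hormone, was the most abundant DEG at 419 and 365 RPKM in control and 256 and 228 RPKM at 1 nM (log2 fold change -0.70, SE 0.0675, edgeR adjusted p = 4.47e-07). Icam1, an adhesion receptor of leukocytes, went from 34.0 and 31.3 RPKM to 20.0 and 19.9 RPKM, and Laptm5, a lysosomal membrane protein of blood cells, from 48.9 and 49.9 RPKM to 30.4 and 28.0 RPKM (log2 fold changes -0.71 and -0.76, edgeR adjusted p = 0.000157 and 5.93e-06). The follistatin-like gene Fstl1 went from 55.4 and 57.9 RPKM to 35.1 and 35.8 RPKM (log2 fold change -0.68, edgeR adjusted p = 3.9e-06). Trh, Icam1, Laptm5 and Fstl1 were among the 19 DEGs called in all 16 alternative fits that kept the fold minimum, together with Igfbp2, Lefty2, Phlda1, Pecam1, Vcan, Map1b, Myc, Nos1, Peg10, Ldhb, Serpinh1, Sfrp1, Mt1, Nqo1 and Khdc3.

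A pair of conditions that shares no library with control and 1 nM was used to look at the same genes again. Between 0.3 nM and 3 nM dTAG13 the dose also rises, and all libraries were fitted together with a shared estimate of the spread. The sample numbers in the labels of these 4 libraries repeat some of those of the other conditions, and what the numbers mark is not given. Comparisons of 0.3 or 3 nM with control cross this grouping, so dose and any effect of the grouping cannot be told apart there. Of the 84 genes lower at 1 nM, 42 were also called lower at 3 nM against 0.3 nM, 50% beside 1.24% of all tested genes, and none was called higher. Without the fold minimum 47 were lower, beside 2.88% of all genes. Of the 19 genes higher at 1 nM, 7 were called higher, 36.8% beside 0.733%, and 8 without the fold minimum, beside 2.46%. The sign was the same for 82 of the 84 (97.6%, beside 49.9% of all genes below 0) and for 18 of the 19 (94.7%, beside 49.7% above 0). The count of 49 DEGs called in both was between 21 and 42 when 1 library of any of the 4 conditions was left out, with 30 and 31 without control replicates 1 and 2, 21 without 1 nM replicate 2 and 32 without 0.3 nM replicate 1.

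Some of the strongest falls passed again in this second comparison and others did not. Emp1 fell by 4.43 and Gpx2 by 3.03 on the log2 scale between 0.3 and 3 nM (edgeR adjusted p = 1.12e-06 and 7.2e-05). Serpinh1 fell by 1.19, close to its change at 1 nM (edgeR adjusted p = 4.09e-07). Osm, Padi4 and Tmem173 had values of -1.74, -0.95 and -0.85 that did not pass (edgeR adjusted p = 0.23, 0.125 and 0.18), and Acsl5 and 2610301B20Rik were near 0 at -0.18 and -0.06 (0.851 and 0.958). Ildr1, Optn, Alpk3 and Laptm5 fell by 2.04, 1.78, 1.58 and 1.42, beside 1 nM values of -1.04, -0.80, -0.65 and -0.76, and the difference between the contrasts was not tested. Lefty2 had a value of -0.34 that did not pass (edgeR adjusted p = 0.0573), and Lama1 one of -0.21 (0.459). At 0.3 nM, where this contrast starts, Lefty2 was already 0.78 lower than control on the log2 scale (edgeR adjusted p = 0.00026). At 3 nM it was 1.125 lower than control (edgeR adjusted p = 3.14e-08). Acsl5 and Lama1 were 1.00 and 0.45 lower than control at 0.3 nM, neither past the test (edgeR adjusted p = 0.361 and 0.281). At 3 nM these genes were 1.18 and 0.66 lower (0.0212 and 0.00186). 2610301B20Rik was 0.42 lower at 0.3 nM and 0.48 lower at 3 nM, neither past the test (0.785 and 0.363). Slc16a3, lower at 1 nM, had a value of 0.29, and Mtx3, higher at 1 nM, one of -0.35, neither past the test. Against control, Slc16a3 was at -0.62 with 0.3 nM and -0.33 with 3 nM, and Mtx3 at 0.73 and 0.38, none past the test. Among the rises, Slc7a2 (1.65), Nrg1 (1.44), Phlda1 (0.95), Peg10 (0.88) and Myc (0.69) passed again (edgeR adjusted p = 1.89e-08, 0.0179, 7.2e-05, 1.35e-10 and 6.53e-06).

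**Figure D4:**
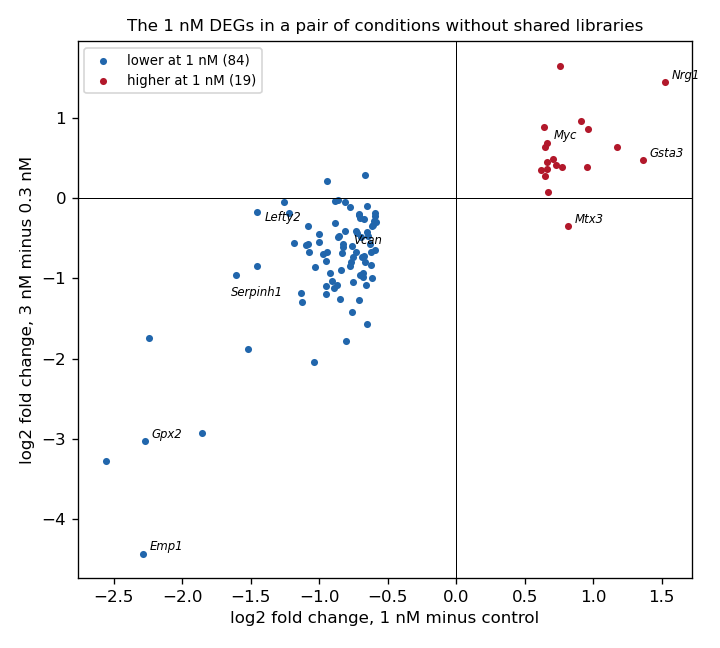
Log2 fold change of the 103 DEGs at 1 nM against control (horizontal axis) and at 3 nM against 0.3 nM (vertical axis), a comparison from other libraries, with lower DEGs in blue and higher DEGs in red. Of the 84 lower DEGs 82 lie below 0 on both axes, and of the 19 higher DEGs 18 lie above 0 on both.

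Set beside the other doses, which share the control libraries with 1 nM, the lower genes had median fitted levels of 76.9%, 56.7%, 49.5%, 42.9% and 39.8% of control along the doses 0.3, 1, 3, 10 and 100 nM. The higher genes had medians of 126%, 166%, 174%, 188% and 174%. The medians at 0.3 and 3 nM cross the grouping by sample number described above. Levels at 100 nM were spread widely, with quartiles of 23.1% and 57.3% for the lower and 122% and 209% for the higher genes. Some genes moved against their 1 nM direction between the top doses. Between 10 and 100 nM, a contrast added after the data were seen that uses neither control nor 1 nM libraries, 4 genes lower at 1 nM rose and 8 fell again at an adjusted p under 0.05 in edgeR, beside 0.600% and 1.77% of all genes. Of those higher at 1 nM, 4 fell and 1 rose. Of the lower genes, those that rose were Jade2, Vcan, Mt1 and Map1b, with log2 fold changes of 0.76, 0.54, 0.47 and 0.45. Of the higher genes, those that fell were Phlda1, Pramel7, Soga3 and Slc25a20, with log2 fold changes of -1.16, -1.05, -0.96 and -0.65. Against control at 100 nM, Jade2, Vcan, Mt1 and Map1b had log2 fold changes of 0.24, -0.25, -0.27 and 0.08. Phlda1, Pramel7, Soga3 and Slc25a20 had 0.0088, -0.42, 0.04 and 0.21. Of these, Mt1 and Pramel7 had an edgeR adjusted p under 0.05 (0.032 and 0.0411). Phlda1 averaged 33.1 ± 5.73 RPKM with 3 nM, 31.1 ± 0.35 RPKM with 10 nM and 13.9 ± 2.26 RPKM with 100 nM dTAG13 (SD, n = 2), beside a control mean of 13.8 RPKM.

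**Figure D5:**
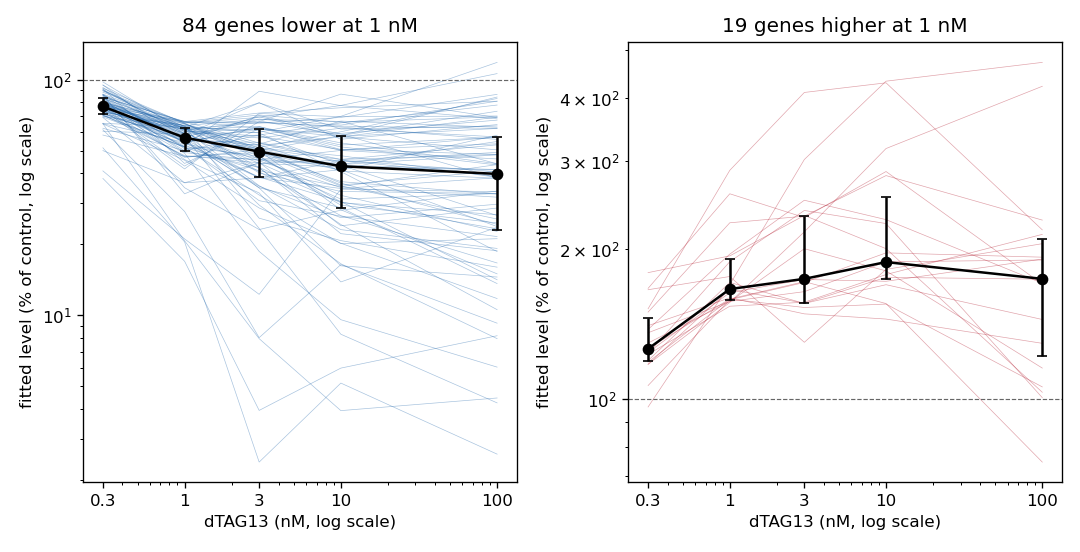
Fitted level in percent of control on a log scale against the dTAG13 dose in nM on a log scale, for the 84 lower (left) and 19 higher (right) DEGs of 1 nM, each thin line a gene and black points the median with quartiles. The medians of the lower genes run from 76.9% at 0.3 nM to 39.8% at 100 nM, and those of the higher genes peak at 188% at 10 nM.

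The DEGs had a lower median level than all tested genes. The median was 5.28 RPKM for the lower and 5.6 RPKM for the higher DEGs, beside 9.40 RPKM over all tested genes, and 48.8% and 47.4% of them were under 5 RPKM, beside 32.4% of all. The median exon length was 3159.5, 3014 and 2738 bases. The part of the level in which genes were called was not tested. Exons of 2 DEGs overlap another gene, Atp1b1 with Nme7 and Nkx6-2 with Inpp5a, so their counts may hold reads of the partner. Within 100 kb of each other lay 2 pairs of DEGs, both lower, Mt2 with Mt1 on chromosome 8 and Atp2a3 with Camkk1 on chromosome 11.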

How the data were processed

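RNA-seq was analysed from 12 libraries of 6 dTAG13 conditions. The authors deposited raw counts of read pairs per gene symbol, made with Trim Galore, HISAT2 and featureCounts 2.0.1 on mm10, with multi-mapped pairs left out and strand ignored although the kit keeps it. That can mix overlapping genes and lower the counts of near copies. RPKM was computed here from these counts and the exon length. Genes averaging 1 RPKM or more in control and 1 nM libraries were tested with edgeR 4.0.16 (R 4.3.3), using TMM factors, a quasi-likelihood fit of all 12 libraries with a term for each condition, and Benjamini-Hochberg adjustment. DESeq2 1.42.0 was an alternative. Calls required an adjusted p below 0.05 with more than 1.5-fold change. The study used a likelihood ratio test with the same limits, which is given as an alternative. The fit was run on simulated counts with a single spread shared by all genes. Genes were called there without the fold minimum, so the calling rule used here was not tested. The totals of 4663484 to 6375582 counts limit precision for low genes.

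Members and gene lists were chosen with earlier results of these data known. Named genes were Smarca4, Smarca2, the 15 largest rises and 25 largest falls, all DEGs in a list, the 3 highest genes of each list described, and the members of 4 short lists. Other DEGs, and list members past the adjusted p but under the fold minimum, were named after their values were seen. Upstream sequences are from RefSeq. No columns of per-sample values were left out. Results for a few genes that meet these rules are not reported here.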

Additional observations from a re-analysis of the deposited data

How the results depend on the processing

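The 19 higher and 84 lower genes became 36 and 109 with the likelihood ratio test, which the study used. DESeq2 gave 11 and 41, and the fit without the RPKM filter gave 32 and 110. With at least 1 RPKM required in each of the 4 libraries there were 15 and 77, and 90 of the 103 DEGs were among them. There were 90 and 177 without a fold minimum, 3 and 22 over 2-fold, and 7 and 26 with glmTreat against 1.2-fold. The 30 list genes became 18 with DESeq2, 82 without a fold minimum, 7 over 2-fold and 15 with glmTreat. The 49 genes also called at 3 against 0.3 nM became 28, 140, 9 and 23 in the same order. Leaving out single libraries gave 8 to 12 higher, 28 to 46 lower and 14 to 22 list genes, and 21 to 42 genes also called at 3 against 0.3 nM. The cause of these shifts was not tested, except that fewer libraries leave fewer degrees of freedom and a changed fold minimum admits more or fewer genes by construction.

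With the replicate number as a block there were 16 higher and 81 lower genes, 29 list genes and 47 genes also called at 3 against 0.3 nM. The numbers were not taken as pairs, because the deviations of control and 1 nM libraries of the same number correlated at -0.0644, within -0.107 to 0.0928 over all 15 pairs of conditions.

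Of 4695 values of named genes under alternatives, 4366 kept their side of the threshold, 289 lost the call and 40 gained it. Where a gene was called in the main or the alternative fit, 0 values changed sign. Sign changes of genes called in neither fit are counted among the 4366. Tead4, for instance, ran from -0.27 to 0.05 on the log2 scale when single libraries were left out. Of the 103 DEGs, 63 were called in at least 12 of 16 alternatives.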

Other observations

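Of 11880 genes with counts but under the RPKM minimum, 4 were higher and 8 lower at 1 nM in the edgeR fit without that minimum. Over all 23204 genes of that fit 32 were higher and 110 lower. Fits with single libraries left out were not run without the minimum. Gcnt4, a glycosyltransferase of O-glycan branching, had 44 and 37 counts in control and 17 and 9 at 1 nM (log2 fold change -1.63, edgeR adjusted p = 0.00247). Gm5803 had 15 and 10 counts in control and 1 and 1 at 1 nM (edgeR adjusted p = 0.0205). The actin-binding genes Flnc and Ablim1 had log2 fold changes of -0.93 and -1.58 (edgeR adjusted p = 0.0143 and 0.0473). The remaining lower genes were Fam132b, Atxn1, Adgrv1 and Dpcr1. Gadd45g, a stress sensor of the GADD45 family, had 0 and 1 counts in control and 5 and 12 at 1 nM (edgeR adjusted p = 0.0338). Tanc2, Pm20d2 and Hydin were also higher, with log2 fold changes of 0.83, 1.05 and 0.71. The control libraries of Pm20d2 differed widely, at 8 and 31 counts, beside 44 and 37 at 1 nM. Adjusted p-values of abundant genes were far smaller in that fit (1.73e-19 for Serpinh1, beside 1.68e-07 in the fit with the minimum), so the p-values of the 2 fits cannot be set side by side.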
